A study of Mus musculus with 17 samples.

Results

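Yap/Taz loss in injured hepatocytes was followed by comparing knockout with wild type hepatocytes of mice given repeated carbon tetrachloride (CCl4), a solvent that liver enzymes turn into a toxic radical. The comparison holds 8 of the 17 samples of the study: 3 knockout CCl4 and 5 wild type CCl4 samples, assigned to their groups by genotype and treatment in the labels. All were hepatocytes purified by FACS from male mice of 2 to 3 months. CCl4 was dosed at 1 ug/g, 7 times at intervals of 3 days, and cells were collected 3 days after the final dose. The other samples, 4 knockout untreated and 5 wild type untreated, served as a second, separate comparison of the genotypes. The labels give neither the alleles nor the way in which Yap and Taz were removed. They also do not say whether each sample came from its own animal, so p values measure the spread between these samples, which may be technical. Knockout CCl4 replicate 3 stood apart from the other libraries, and fold changes tested after CCl4 are therefore given with all 3 knockout libraries, most of them again without that replicate.

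YAP and its relative TAZ (gene Wwtr1) are transcriptional coactivators that the Hippo kinases keep out of the nucleus. In the nucleus they bind TEAD factors and switch on genes of growth, cytoskeleton and matrix. In liver they are known for the control of organ size, of regeneration after injury and of the boundary between hepatocyte and bile duct identity.

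The 17 libraries held 11266420 to 24775863 counts, and 13721 genes passed the filter on low counts. The 3 knockout CCl4 libraries lay at -65.1, -96.7 and -160 on the first principal component, and the 5 wild type CCl4 libraries between -27.6 and 5.30. Hepatocyte markers were high in every library, with a summed level of 137007 to 170915 CPM (counts scaled to library size, on TMM-adjusted totals) in the knockout and 132314 to 152809 in wild type after CCl4. Mitochondrially encoded genes took 7.49%, 4.25% and 34.3% of counts in knockout replicates 1, 2 and 3, against 1.98% to 10.01% in wild type CCl4. Kupffer cell markers, which belong to the resident macrophages of the liver, summed to 186, 342 and 4135 CPM in knockout replicates 1, 2 and 3, against 100 to 198 CPM in wild type. In bulk RNA, fewer cells of a type and less RNA per cell cannot be told apart.

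Promoter letters are shown first because several gene groups described here are classic sets with a known promoter element. RefSeq promoters on GRCm38.p6, running from 250 bases before to 50 bases after the annotated start, were searched on both strands, and overlapping matches were joined. E2F letters (TTTCGCGC, TTTGGCGC, TTTCCCGC or TTCCCGCC, of which the last pair can overlap) stood in 14 of 27 promoters of tested DNA replication genes, or 51.9%. The same letters stood in 6.45% of promoters of all tested genes and in 3.57% of all 27025 RefSeq promoters. The element of mitotic genes known as CHR (TTTGAA) stood in 21 of 28 promoters of mitosis genes, or 75%, against 12.4% of tested genes and 18.1% of all promoters. TEAD letters (GGAATG) stood in 6 of 12 promoters of direct YAP/TAZ-TEAD targets, or 50%, against 12% of tested genes and 14.6% of all promoters. The gene lists are textbook sets, so these shares describe the sets and not the libraries. For display, CHR matches were limited to 50 bases before the start, a limit that the shares do not use. Mcm2 and Prc1 were searched for display as well and gave no window. The windows below, with the matched letters in capitals, come from genes whose levels follow. They lie at chr8:75109334-75109389 on the plus strand for Mcm5, chr1:128359782-128359837 on the minus strand for Mcm6 and chr11:99024190-99024234 on the minus strand for Top2a. The others lie at chr4:118437344-118437383 on the minus strand for Cdc20, chr2:164769878-164769927 on the plus strand for Ube2c and chr3:145650061-145650110 on the minus strand for Ccn1.
Mcm5: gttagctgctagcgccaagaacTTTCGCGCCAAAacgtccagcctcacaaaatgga
Mcm6: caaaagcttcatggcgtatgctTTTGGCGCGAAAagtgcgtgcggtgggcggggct
Top2a: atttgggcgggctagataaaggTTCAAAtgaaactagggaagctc
Cdc20: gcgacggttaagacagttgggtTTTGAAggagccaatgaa
Ube2c: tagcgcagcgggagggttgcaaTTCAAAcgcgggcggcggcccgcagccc
Ccn1: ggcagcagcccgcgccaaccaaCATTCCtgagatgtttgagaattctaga
Among genes that rose with and without replicate 3, E2F letters stood in 6.67% and TEAD letters in 13.3% of 150 promoters. Among genes that fell in both fits these shares were 3.79% and 18.2% of 132 promoters.

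Yap1 and Wwtr1, the genes the knockout targets, were low in every knockout library. Yap1 (ENSMUSG00000053110, chr9:7931999-8004596) stood at 1.61, 0.536 and 1.97 CPM in knockout replicates 1 to 3 and at 57.1, 51.8, 64.4, 42.5 and 60 CPM in wild type. Wwtr1 (ENSMUSG00000027803, chr3:57455649-57575910) stood at 4.48, 2.72 and 7.09 CPM in the knockout and at 23.4, 19.9, 21.9, 15.2 and 17.8 CPM in wild type. No knockout library reached the lowest wild type library for either gene, and replicate 3 was the highest of the knockout libraries for both. On the log2 scale Yap1 fell by 5.39 ± 0.58 (SE; adjusted p = 5.93e-05) and Wwtr1 fell by 2.06 ± 0.33 (adjusted p = 0.00116). Without replicate 3 the differences were -5.75 (adjusted p = 0.000379) and -2.45 (adjusted p = 0.00111). Of the 6 tested genes of the YAP/TAZ-TEAD complex these were the 2 that fell. Tead1, a DNA-binding partner, had a log2 difference of 0.39 ± 0.32 (adjusted p = 0.484; 0.464 without replicate 3). Vgll4, which competes with YAP for TEAD, had -0.31 ± 0.21 (adjusted p = 0.377; 0.866 without replicate 3).

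Direct targets of the YAP/TAZ-TEAD complex did not move as a group. Of 17 tested targets 2 rose, none fell, and the median log2 difference was 0.40, against 0.04 for all genes tested. Over all genes tested 7.62% rose and 4.21% fell, so counts this small say little about the targets. Without replicate 3 no target was called and the median was 0.00. Ccn1 (chr3:145646976-145649981), a matricellular protein whose TEAD window is printed above, stood at 13.1, 5.83 and 27.6 CPM in knockout replicates 1 to 3. In wild type it stood at 44.5, 88.8, 52.9, 75.6 and 42.9 CPM. All knockout libraries lay below all wild type libraries, but the difference of -1.99 ± 0.70 log2 missed the threshold (adjusted p = 0.0756, and 0.0992 without replicate 3). DESeq2, limma voom, the fit with a surrogate variable and the fit of the compared groups alone called it. F3, the initiator of coagulation, was likewise lower in all 3 knockout libraries, with -1.37 ± 0.57 log2 (adjusted p = 0.136; 0.271 without replicate 3). Amotl2, a scaffold that holds YAP at junctions, had -1.28 ± 0.54 (adjusted p = 0.14; 0.449 without replicate 3), and it passed once knockout replicate 1 was left out. Ccn2, a relative of Ccn1, stood at 0.299, 0.679 and 5.36 CPM in the knockout against 0.178 to 0.567 in wild type, so its 2.54 log2 (adjusted p = 0.205) came from replicate 3.

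The 2 targets that rose were Axl and Myof, and their levels followed the library that stood apart. Axl, a receptor tyrosine kinase that macrophages also carry, had 7.65, 25.8 and 188 CPM in knockout replicates 1 to 3 and 0.5 to 4.54 CPM in wild type. It rose by 5.27 ± 0.92 log2 (adjusted p = 0.00213), and by 3.13 without replicate 3, short of the threshold (adjusted p = 0.0686). Myof, a membrane repair protein, had 1.14, 4.18 and 24.5 CPM against 0.143 to 0.634, with 4.82 ± 0.95 log2 (adjusted p = 0.00417) and 2.93 without replicate 3 (adjusted p = 0.103). Markers of macrophages were high in the same library, and their part in the result was not tested.

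**Figure D1:**
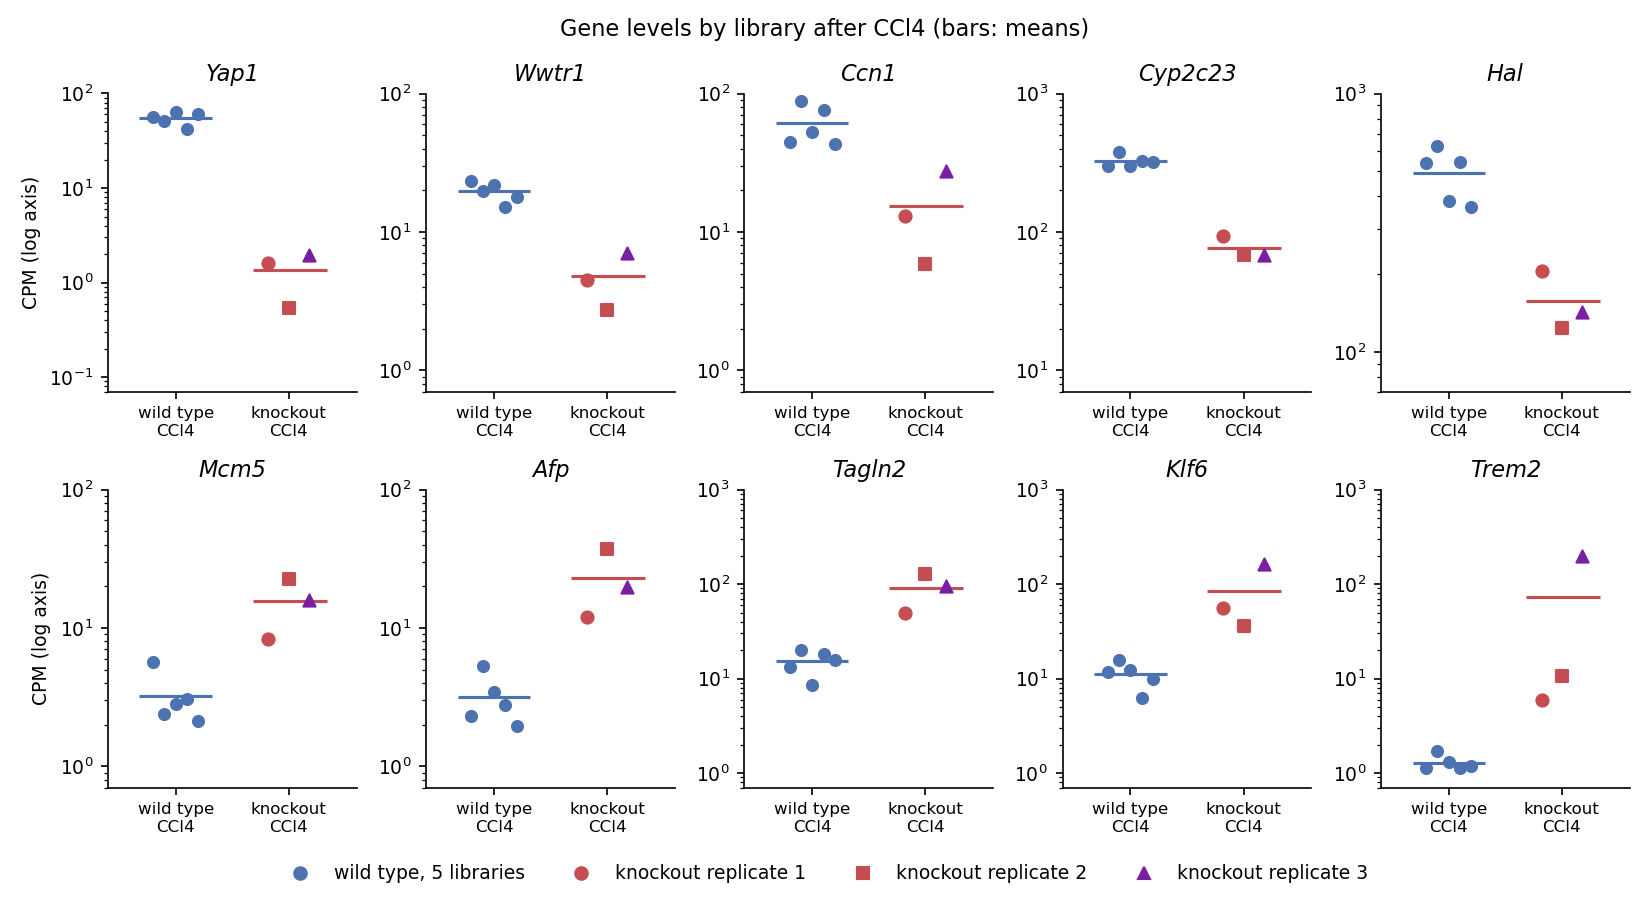
Levels of 10 genes in the 5 wild type CCl4 and 3 knockout CCl4 libraries, in CPM on a log axis, with bars at the group means and knockout replicate 3 as a triangle. Yap1, Wwtr1, Ccn1, Cyp2c23 and Hal are lower in all 3 knockout libraries, and Mcm5, Afp, Tagln2, Klf6 and Trem2 are higher in all 3; for Trem2 replicate 3 is at 200 CPM against 5.98 and 10.7 in replicates 1 and 2.

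Across all genes, 1622 of 13721 were called after CCl4 (11.8%), of which 1045 rose (7.62%) and 577 fell (4.21%). Without replicate 3 the number was 418 of 14239 (2.94%), of which 249 rose (1.75%) and 169 fell (1.19%). The genes called in the same direction in both fits numbered 388, with 229 rises and 159 falls. They were 23.9% of the calls made with replicate 3 and 92.8% of those made without it. In 490 of the 1045 rises (46.9%) replicate 3 had more than 3 times the level of each of the other knockout libraries. These rises were called with replicate 3 in the fit, and the same share over all genes tested was not taken. The number of calls was 1026 without wild type CCl4 replicate 2. All 3 knockout libraries lay above all 5 wild type libraries for 1391 genes (10.1%) and below them for 1094 (7.97%).

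**Figure D2:**
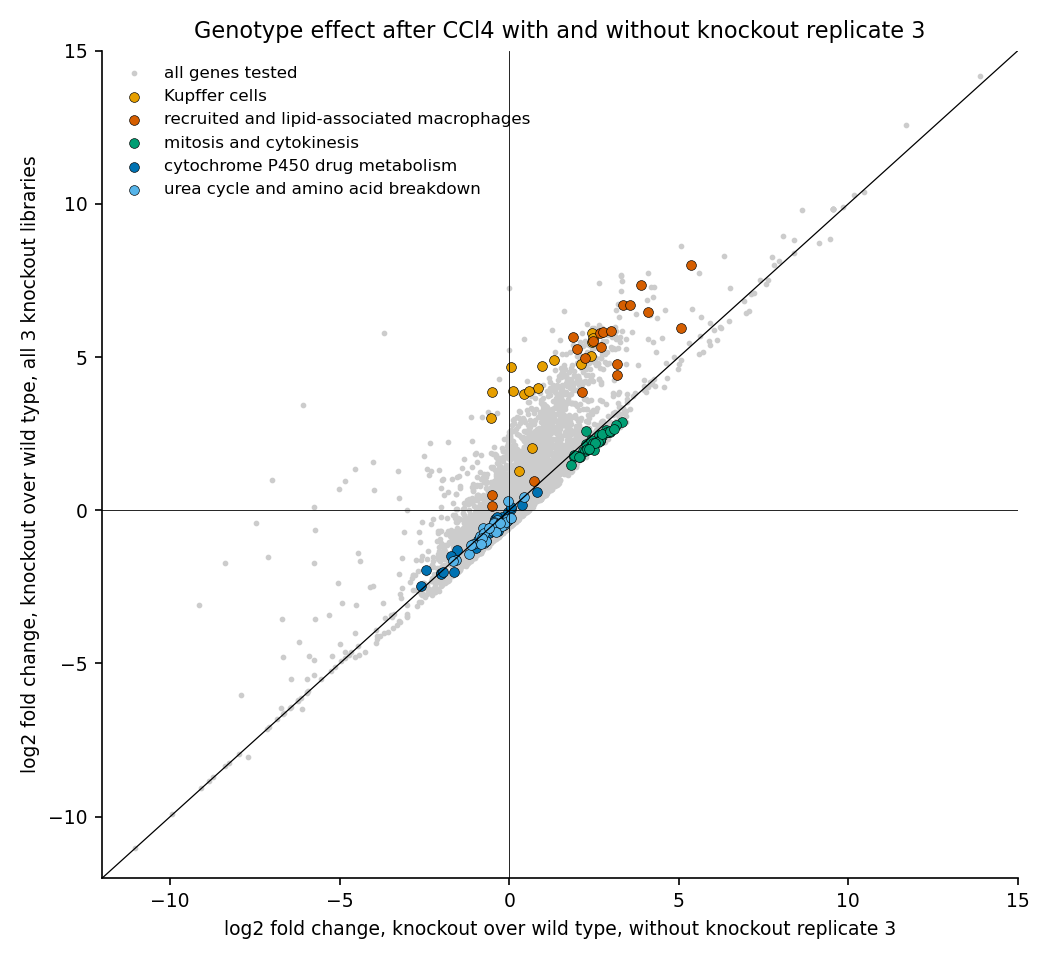
Log2 fold change of knockout over wild type after CCl4 for each gene tested, with all 3 knockout libraries (vertical axis) against the same without replicate 3 (horizontal axis); the line marks equal values and 5 gene lists are coloured. Most Kupffer cell and recruited macrophage markers sit far above the line, nearly all mitosis genes sit just below it on the right, and P450 and amino acid genes sit close to it, most of them below 0.

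Genes of drug metabolism fell. Of 30 cytochrome P450 genes, the oxidases that clear drugs and also activate CCl4, 12 fell and none rose, with a median of -0.63 log2. Without replicate 3, 6 fell, all among the same 12, with a median of -0.56. Over all genes tested 7.62% rose and 4.21% fell, and without replicate 3 1.75% rose and 1.19% fell. The counts of the lists that follow are to be read beside the same shares. Summed over the list, the level was 8172, 7029 and 6280 CPM in knockout replicates 1 to 3 and 10814 to 16228 CPM in wild type, without overlap. Cyp2j5, an epoxygenase of fatty acids, stood at 240, 168 and 111 CPM in the knockout and at 347, 469, 412, 448 and 346 CPM in wild type. It fell by 1.23 ± 0.21 log2 (adjusted p = 0.00193), and by 0.99 without replicate 3 (adjusted p = 0.0113). Cyp2f2, an oxidase of periportal hepatocytes, stood at 804, 198 and 168 CPM against 1496, 1728, 1247, 1989 and 1354. It fell by 2.00 ± 0.43 (adjusted p = 0.00705), and by 1.64 without replicate 3 (adjusted p = 0.048). Knockout replicate 1 was the least changed of the 3 for both genes.

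Other P450 genes fell as well. Cyp2a12 fell by 0.96 ± 0.20 log2 (adjusted p = 0.00581; 0.0433 without replicate 3). Cyp3a59 fell by 1.48 ± 0.28 (adjusted p = 0.00345; 0.00966 without replicate 3). Cyp3a25 fell by 1.30 ± 0.32 (adjusted p = 0.0141; 0.0294 without replicate 3, and 0.0618 without knockout replicate 2). Cyp2e1, the pericentral enzyme that converts CCl4 to its radical, stood at 628, 424 and 446 CPM in the knockout and at 1023, 2324, 2775, 1987 and 2020 CPM in wild type. The groups did not overlap, and it fell by 2.02 ± 0.61 (adjusted p = 0.0417), but the call was lost in 9 of 17 fits that left out 1 library, up to an adjusted p of 0.185 without replicate 3. Another fall was that of Cyp2c23 (chr19:44005022-44029208), an arachidonic acid epoxygenase that the list holds under an older symbol. It stood at 93.5, 68.2 and 67.9 CPM in the knockout and at 301, 380, 301, 328 and 322 CPM in wild type, and it fell by 2.09 ± 0.21 (adjusted p = 2.99e-05; 0.000379 without replicate 3). The number of P450 genes that fell was 5 without knockout replicate 2 and 7 without wild type CCl4 replicate 2.

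Genes of amino acid breakdown fell as well. Of 30 genes of the urea cycle and amino acid breakdown 12 fell and none rose, with a median of -0.64 log2, and without replicate 3 4 fell with a median of -0.53. Hal (chr10:93488768-93519304), which starts histidine breakdown, stood at 206, 124 and 142 CPM in the knockout and at 538, 625, 383, 544 and 364 CPM in wild type. It fell by 1.64 ± 0.29 (adjusted p = 0.00241; 0.0217 without replicate 3). Tdo2, which opens tryptophan breakdown, stood at 820, 328 and 317 CPM against 1209, 1745, 1114, 1339 and 1204, and it fell by 1.44 ± 0.28 (adjusted p = 0.00378; 0.0345 without replicate 3). The proline oxidase Prodh fell by 1.66 ± 0.32 (adjusted p = 0.00409; 0.0294 without replicate 3). The lysine-degrading enzyme Aass fell by 1.11 ± 0.23 (adjusted p = 0.0054; 0.0215 without replicate 3). The 4 genes named here are the 4 of the list that fell in both fits, and in each the 3 knockout libraries lay below the 5 wild type libraries. On the whole list this held for 13 of 30 members, against 7.97% of all genes tested. The count of falls was 6 without knockout replicate 2.

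Bile acid and fatty acid genes followed the same direction with fewer calls. Of 19 genes of bile acid synthesis 5 fell and none rose (median -0.57 log2), and 1 fell without replicate 3. Slc27a5, which activates bile acids before conjugation, stood at 368, 219 and 322 CPM in the knockout and at 648, 810, 612, 957 and 694 CPM in wild type. It fell by 1.30 ± 0.19 (adjusted p = 0.000816; 0.00419 without replicate 3). Baat, which conjugates bile acids to amino acids, fell by 1.19 ± 0.26 (adjusted p = 0.00818), with -1.02 and an adjusted p of 0.0686 without replicate 3. Leaving out knockout replicate 2 or wild type CCl4 replicate 2, 3 or 4 gave 2 or 3 falls in the synthesis list, and leaving out knockout replicate 1 gave 9.

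Of 19 tested bile acid and organic anion transporters 6 fell and none rose (median -0.60 log2), and none of those 6 passed without replicate 3. Abcg2, an efflux pump of the canalicular membrane, fell by 1.01 ± 0.21 (adjusted p = 0.00666; 0.0574 without replicate 3). Slc10a1, the main uptake carrier of conjugated bile acids, stood at 256, 129 and 160 CPM in the knockout and at 338, 555, 318, 627 and 365 CPM in wild type. It fell by 1.28 ± 0.32 (adjusted p = 0.0155), and it did not pass without knockout replicate 2 or 3 (adjusted p up to 0.0979). Abcc3, a basolateral export pump singled out after its values were seen, stood at 30.9, 51.3 and 122 CPM against 134 to 162 CPM in wild type. It had -1.06 ± 0.37 (adjusted p = 0.0727) and, without replicate 3, -1.78 (adjusted p = 0.00984). The count of falls in the transporter list was 3 without knockout replicate 2 and 3 without wild type CCl4 replicate 2.

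Of 30 tested PPARA targets and enzymes of fatty acid oxidation 6 fell and none rose (median -0.62 log2), and 2 fell without replicate 3. Acaa1b, a thiolase of peroxisomes, stood at 284, 126 and 111 CPM in the knockout and at 349, 557, 589, 514 and 406 CPM in wild type, without overlap. It fell by 1.48 ± 0.30 (adjusted p = 0.00515; 0.0451 without replicate 3), although it has a near-identical neighbour, so its counts are uncertain. The list's falls numbered 11 without knockout replicate 1 and 3 without knockout replicate 2.

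Male-biased liver genes, which growth hormone pulses maintain in male mice, were lower in the knockout. Of 30 members 11 fell and 1 rose (median -1.09 log2), and 5 fell without replicate 3 (median -0.85). Hsd3b5 (chr3:98618634-98630252), a steroid dehydrogenase, stood at 1.67, 0.107 and 0.315 CPM in the knockout and at 7.73, 15.2, 24.3, 34.3 and 12 CPM in wild type. It fell by 4.80 ± 0.68 (adjusted p = 0.000601; 0.00618 without replicate 3). Selenbp2, a selenium-binding protein, stood at 64.4, 4.22 and 10.8 CPM against 437, 612, 667, 947 and 611, and it fell by 4.63 ± 0.75 (adjusted p = 0.0013; 0.0142 without replicate 3). Keg1 fell by 2.20 ± 0.47 (adjusted p = 0.00694; 0.0414 without replicate 3). Replicate 1 kept the highest level of the knockout libraries for all 3 genes, and 17 male-biased genes fell once it was left out.

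The major urinary proteins, pheromone carriers that hepatocytes of males secrete, showed this difference between knockout libraries most plainly. Their summed level was 13281 CPM in replicate 1, within the wild type range of 12268 to 17975 CPM, but 1316 and 1670 CPM in replicates 2 and 3. Of 21 members 4 fell, 15 fell without replicate 1, and 1 fell without replicate 3. Mup3 had 1245, 208 and 283 CPM against 2310 to 3428 in wild type, and it fell by 2.38 ± 0.48 (adjusted p = 0.0052; 0.0433 without replicate 3). Mup genes are close copies, as are members of the Hsd3b, Selenbp and Sult2a families, so values for single members are uncertain. Ghr, the growth hormone receptor, fell by 1.05 ± 0.27 (adjusted p = 0.019), with -0.70 and an adjusted p of 0.061 without replicate 3.

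Single falls outside these lists were of comparable size. Pigr, which carries immunoglobulin A across hepatocytes into bile, stood at 656, 442 and 358 CPM in the knockout and at 1386, 1425, 1458, 1483 and 1335 CPM in wild type. It fell by 1.55 ± 0.20 (adjusted p = 0.000268; 0.00175 without replicate 3). Aldh1a1, a retinaldehyde dehydrogenase of pericentral cells, fell by 1.89 ± 0.30 (adjusted p = 0.00127; 0.00974 without replicate 3), and it also fell untreated, by 1.53 (adjusted p = 0.00596). Nat8f1, of an acetyltransferase family with close copies, fell by 2.27 ± 0.31 (adjusted p = 0.000421; 0.0037 without replicate 3). The sulfotransferase Sult2a8 had 107, 14.4 and 14.5 CPM against 272 to 507 CPM in wild type, and it fell by 3.13 ± 0.57 (adjusted p = 0.00254; 0.0163 without replicate 3). Again replicate 1 lay between the wild type libraries and the other knockout libraries.

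Ugp2, which makes UDP-glucose for glycogen, fell by 1.38 ± 0.22 (adjusted p = 0.0013; 0.0134 without replicate 3). F13b, a subunit of coagulation factor XIII, fell by 0.97 ± 0.18 (adjusted p = 0.00341; 0.0209 without replicate 3). Nr1d2, a repressor of the circadian clock, was the single clock gene of 21 that was called, and it fell by 1.61 ± 0.35 (adjusted p = 0.00784; 0.0428 without replicate 3). Over all genes tested 4.21% fell, so 1 of 21 is near the general share. The time of day at which cells were collected is not given in the labels. Apoa2, an apolipoprotein of HDL, fell by 1.07 ± 0.26 (adjusted p = 0.0147; 0.0361 without replicate 3, and 0.0632 without knockout replicate 2). H2-Q1, a class I histocompatibility gene with close copies, fell by 3.02 ± 0.60 (adjusted p = 0.00452; 0.00849 without replicate 3). The hepcidin copy Hamp2 stood at 5.32, 3.33 and 2.44 CPM against 18.6 to 130 CPM in wild type. It fell by 4.10 ± 0.92 (adjusted p = 0.00921; 0.0772 without replicate 3). None of 26 tested hepatocyte transcription factors was called in either fit, and their median was -0.26 log2 with replicate 3 and -0.09 without it.

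**Figure D3:**
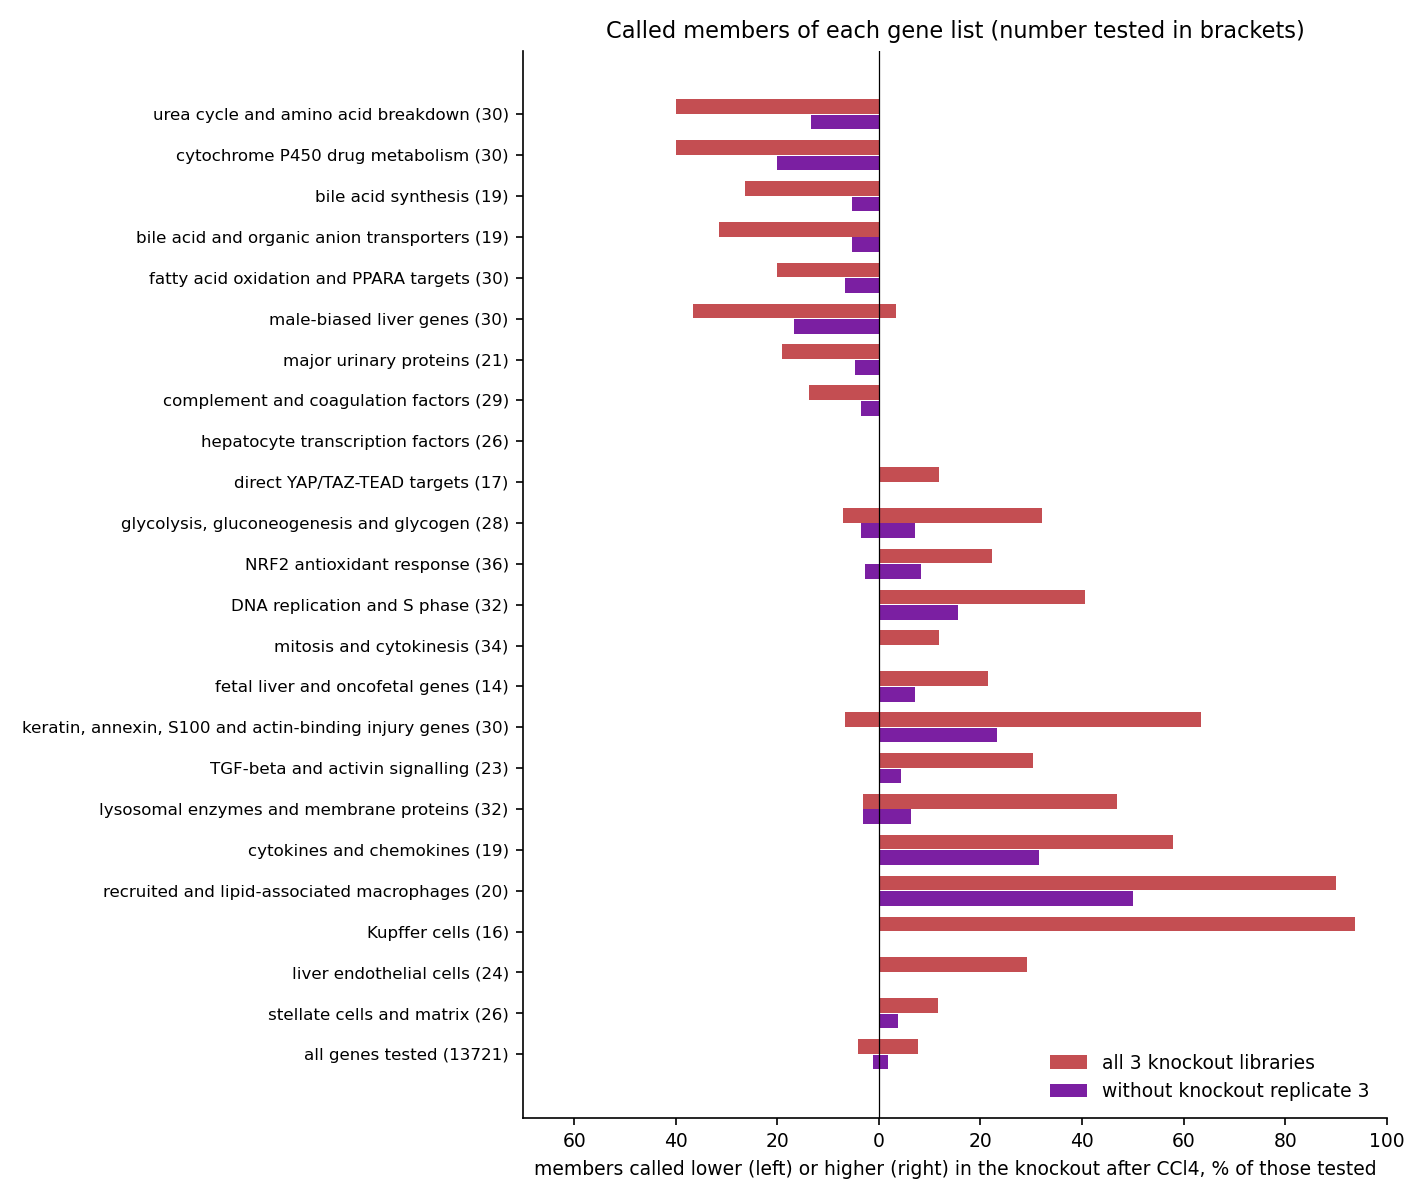
Share of the tested members of each gene list that were called lower (left of 0) or higher (right of 0) in knockout than in wild type after CCl4, in percent, with all 3 knockout libraries (red) and without replicate 3 (purple). Lists of P450, amino acid, bile acid, fatty acid oxidation, male-biased and urinary protein genes lie mostly or wholly to the left, lists of glycolysis, proliferation, injury and macrophages lie mostly or wholly to the right, and the Kupffer cell list goes from 15 of 16 members to none without replicate 3.

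Members of a mixed list of injury genes rose. On a list of keratins, annexins, S100 and actin-binding proteins 19 of 30 tested members rose and 2 fell (median 1.69 log2). Without replicate 3, 7 rose, all among the same 19, none fell, and the median was 1.23. Among those 7 was Lgals3, which also stands on the list of recruited macrophage markers below. Tagln2 (chr1:172500047-172507380), an actin-binding protein, stood at 49, 128 and 95.3 CPM in knockout replicates 1 to 3 and at 13.3, 20.2, 8.53, 18.3 and 15.6 CPM in wild type. It rose by 2.58 ± 0.39 (adjusted p = 0.000889; 0.0045 without replicate 3). Anxa2 (chr9:69453620-69491795), a membrane-binding annexin, stood at 38.7, 109 and 71.8 CPM against 5.36, 12.3, 8.38, 9.61 and 5.92, and it rose by 3.14 ± 0.49 (adjusted p = 0.00104; 0.00454 without replicate 3). Ly6d (chr15:74762056-74763620), a surface protein of epithelia and B lineage cells, stood at 25.7, 96.4 and 46.1 CPM against 4.24, 6.74, 4.35, 10.3 and 6.12, and it rose by 3.14 ± 0.38 (adjusted p = 0.00019; 0.000419 without replicate 3). Golm1, a Golgi membrane protein that injured hepatocytes make, rose by 1.63 ± 0.27 (adjusted p = 0.0016; 0.00111 without replicate 3). In all 4 genes, which were picked by adjusted p, every knockout library lay above every wild type library, and replicate 2 rather than replicate 3 was the highest. On the whole list 17 of 30 tested members lay wholly above wild type and 3 wholly below, against 10.1% and 7.97% of all genes tested.

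Fetal liver genes lay higher in the knockout, though few passed. All 14 tested members had a log2 difference above 0 in both fits, with a median of 1.74 and, without replicate 3, 1.57. With all libraries 3 rose, and 1 rose without knockout replicate 2, without replicate 3 and without each of wild type CCl4 replicates 1, 3, 4 and 5. The gene called in both fits was Afp (chr5:90490737-90508907), the fetal counterpart of albumin. It stood at 12, 37.4 and 19.9 CPM in the knockout and at 2.31, 5.29, 3.46, 2.78 and 1.97 CPM in wild type, and it rose by 2.87 ± 0.59 (adjusted p = 0.00527; 0.0195 without replicate 3). The groups did not overlap for Afp.

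Female-biased liver genes moved in both directions. Of 24 tested members 5 rose and 2 fell, and without replicate 3, 4 rose and 2 fell. Over all genes tested 7.62% rose and 4.21% fell, and without replicate 3 1.75% and 1.19%. The median of the list was 0.11 log2, and it was -0.01 when libraries were scaled by their totals alone. Cyp2a4, a steroid hydroxylase with a close copy, stood at 25.9, 99.7 and 72.8 CPM in the knockout and at 8.85, 3.47, 3.25, 4.34 and 5.07 CPM in wild type. It rose by 3.73 ± 0.58 (adjusted p = 0.00103; 0.00582 without replicate 3). Sult1e1, which inactivates oestrogens, rose by 5.48 ± 0.83 (adjusted p = 0.000889; 0.0142 without replicate 3). Cyp17a1, an enzyme of androgen synthesis, rose by 2.50 ± 0.44 (adjusted p = 0.00215; 0.0234 without replicate 3), and it was also called higher untreated, by 1.90. Sult2a7, of a sulfotransferase family with close copies, stood at 0.12, 0 and 0.158 CPM against 1.25 to 2.35 CPM and fell by 4.37 ± 0.73 (adjusted p = 0.00159; 0.00458 without replicate 3).

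On the NRF2 antioxidant list, 8 of 36 tested members rose and none fell (median 0.25 log2), and without replicate 3, 3 rose and 1 fell, the pump Abcc3 described above. Srxn1, which repairs oxidised peroxiredoxins, stood at 71.5, 199 and 43.3 CPM in the knockout and at 40.5, 37.4, 28, 35.6 and 34.5 CPM in wild type. It rose by 1.57 ± 0.35 (adjusted p = 0.00874; 0.0026 without replicate 3), and it did not pass without knockout replicate 2 (adjusted p = 0.107). Gsta1 (chr9:78230656-78242684), a glutathione transferase with a near-identical copy, stood at 23.4, 87.9 and 32.3 CPM against 9.91, 19.9, 7.6, 11.9 and 14. It rose by 1.92 ± 0.41 (adjusted p = 0.0068; 0.0157 without replicate 3, and 0.0794 without knockout replicate 2). Pgd, of the pentose phosphate pathway, rose by 0.98 ± 0.21 (adjusted p = 0.00679; 0.0375 without replicate 3). Hmox1, which breaks down haem, stood at 8.97, 11.8 and 193 CPM against 3.48 to 6.68 CPM, with 3.88 ± 0.75 log2 (adjusted p = 0.00401) and 1.10 without replicate 3 (adjusted p = 0.216). The list's rises numbered 4 without knockout replicate 2 and 4 or 5 without any 1 of the wild type CCl4 libraries.

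Other rises held in both fits and came from several functions. Apoa4 (chr9:46240696-46243459), an apolipoprotein of lipid export, stood at 546, 1044 and 1403 CPM in the knockout and at 199, 153, 99.1, 241 and 172 CPM in wild type. It rose by 2.53 ± 0.28 (adjusted p = 7.48e-05; 0.00042 without replicate 3), and untreated by 1.25 (adjusted p = 0.0239). Slc1a4, a carrier of neutral amino acids, rose by 2.27 ± 0.35 (adjusted p = 0.000889; 0.00647 without replicate 3). Ldha, which makes lactate, rose by 0.92 ± 0.20 (adjusted p = 0.00669; 0.0463 without replicate 3). On its list of glycolysis, gluconeogenesis and glycogen 9 of 28 members rose and 2 fell (median -0.17 log2), and without replicate 3, 2 rose and 1 fell. Falls on that list numbered 6 without knockout replicate 1. Trf, the iron carrier transferrin, rose by 0.76 ± 0.17 (adjusted p = 0.0103; 0.0215 without replicate 3, and 0.0682 without knockout replicate 2). Trf was the single member of 17 hepatocyte markers that rose, while 3 fell, among them Tdo2 and Cyp2e1. Pnpla3, a lipase of lipid droplets, rose by 2.61 ± 0.53 from under 1 CPM in wild type (adjusted p = 0.00489; 0.0125 without replicate 3).

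Klf6 (chr13:5861482-5870394), an early response transcription factor, stood at 55.5, 35.9 and 163 CPM in the knockout and at 11.8, 15.9, 12.3, 6.2 and 9.87 CPM in wild type. It rose by 2.92 ± 0.42 (adjusted p = 0.000642), and by 2.03 without replicate 3 (adjusted p = 0.00564). Of 23 tested immediate-early genes 6 rose (median 1.35 log2), and Klf6 was the 1 that rose without replicate 3 (median 0.51). Skil, a repressor of SMAD signalling, rose by 1.61 ± 0.29 (adjusted p = 0.00244; 0.0222 without replicate 3). It was the 1 gene of 23 in TGF-beta and activin signalling that rose in both fits, against 7 with replicate 3 and 4 without wild type CCl4 replicate 2 or 5. Tgfb1 itself stood at 2.99, 5.69 and 54.6 CPM against 0.499 to 2.2 CPM, with 4.17 ± 0.80 log2 (adjusted p = 0.00374) and 1.90 without replicate 3 (adjusted p = 0.164).

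Mmp14, a membrane protease that activates matrix enzymes, rose by 1.76 ± 0.28 (adjusted p = 0.00112; 0.0119 without replicate 3). The chemokine Cxcl14 stood at 34.1, 72.1 and 69.2 CPM in the knockout and at 1.56, 0.882, 0.785, 2.05 and 1.39 CPM in wild type, a gap in every library. It rose by 5.45 ± 1.19 (adjusted p = 0.00815; 0.0386 without replicate 3). Untreated, the median of Cxcl14 was 19.2 CPM in knockout and 0.202 CPM in wild type, a log2 difference of 3.24 that was not called. The chemokine Ccl9 rose by 1.10 ± 0.19 (adjusted p = 0.00226; 0.00234 without replicate 3). Fgl2, a fibrinogen-like protein of macrophages and endothelium, stood at 3.95, 17.1 and 31.7 CPM against 0.0357 to 0.315 CPM. It rose by 7.25 ± 0.82 (adjusted p = 8.59e-05; 0.000496 without replicate 3).

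DNA replication genes rose in the knockout after CCl4. Of 32 tested genes of S phase 13 rose and none fell (median 0.98 log2), and without replicate 3, 5 rose (median 1.03). Mcm5 (chr8:75109569-75128439), a subunit of the replicative helicase with E2F letters in its promoter as printed above, stood at 8.31, 22.5 and 15.8 CPM in the knockout. In wild type it stood at 5.67, 2.4, 2.82, 3.07 and 2.13 CPM, so the groups did not overlap. It rose by 2.27 ± 0.45 (adjusted p = 0.00419; 0.0208 without replicate 3). The helicase subunit Mcm2 rose by 1.63 ± 0.36 (adjusted p = 0.0088; 0.0485 without replicate 3). Rrm1 and Rrm2 are the subunits of ribonucleotide reductase, which makes DNA precursors. Rrm1 rose by 0.93 ± 0.22 (adjusted p = 0.0117; 0.0178 without replicate 3). Rrm2 stood at 17.8, 57.4 and 20.4 CPM against 8.88 to 15 CPM and rose by 1.43 ± 0.35 (adjusted p = 0.0133; 0.0197 without replicate 3). Fen1, a flap endonuclease, rose by 1.55 ± 0.35 (adjusted p = 0.0103; 0.0443 without replicate 3).

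The size of this group depended on knockout replicate 2. Replicate 2 was the highest library for Mcm5, Mcm2, Mcm6, Rrm1, Rrm2 and Fen1, and without it 3 S phase genes rose. Without it Mcm2, Fen1, Rrm1 and Rrm2 had adjusted p values of 0.0569, 0.0606, 0.102 and 0.168, and Mcm5 still passed. The count of S phase rises was 7 without wild type CCl4 replicate 2, 3 or 5 and 8 without replicate 4. Mcm6, named after its values were seen for its promoter letters, rose by 1.18 ± 0.35 (adjusted p = 0.0399), and it lost the call in 8 of 17 fits without 1 library (adjusted p up to 0.147). The summed level of S phase genes was 299, 494 and 372 CPM in knockout replicates 1 to 3 and 231 to 287 CPM in wild type, above the wild type range in each.

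Mitosis genes lay higher in the knockout by group difference and by summed level, but most missed the threshold. In 27 of the 34 every knockout library lay above every wild type library, against 10.1% of all genes tested. All 34 had a log2 difference above 0 in both fits, with a median of 2.21 and, without replicate 3, 2.50. With all libraries 4 rose, where 7.62% of all genes tested rose, and without replicate 3 none did. Summed, they reached 448, 1693 and 420 CPM in knockout replicates 1 to 3 and 119 to 313 CPM in wild type, so each knockout library lay above the wild type range and replicate 2 lay far above the others. Mki67, a marker of cycling cells, stood at 43.1, 200 and 38.4 CPM against 35.3, 12.7, 25.5, 9.27 and 13.4 (2.29 ± 1.04 log2, adjusted p = 0.172; 0.229 without replicate 3). Top2a, a topoisomerase, stood at 14.7, 38.8 and 20.2 CPM against 6.98, 4.48, 7.24, 4.88 and 4.14 (2.15 ± 0.73, adjusted p = 0.0658; 0.15 without replicate 3). Cdc20, an activator of the anaphase-promoting complex, had 2.42 ± 1.13 (adjusted p = 0.186; 0.272 without replicate 3), and Ube2c, the ubiquitin-conjugating enzyme of that complex, had 2.48 ± 1.05 (adjusted p = 0.144; 0.233 without replicate 3). These 4 genes were named after their values were seen, as familiar mitosis markers with or without printed promoter letters.

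The 4 mitosis genes that were called also stood close to the threshold. Prc1, a spindle midzone protein, rose by 2.63 ± 0.78 (adjusted p = 0.0373; 0.0903 without replicate 3). Ect2, which drives cytokinesis, stood at 8.61, 68.3 and 9.45 CPM against 4.06 to 5.74 CPM, with 2.56 ± 0.80 (adjusted p = 0.0479) that lost the call in 13 of 17 fits without 1 library (adjusted p up to 0.535). Pbk, a mitotic kinase, and Cenpa, the centromeric histone, rose by 2.59 ± 0.80 (adjusted p = 0.0452; 0.0642 without replicate 3) and 1.74 ± 0.53 (adjusted p = 0.0417; 0.093 without replicate 3). Cdkn1a, the inhibitor p21 that arrests the cycle, rose beside them, from 15.2 to 37.5 CPM in wild type to 85.1, 126 and 102 CPM in the knockout. Its difference was 2.20 ± 0.64 (adjusted p = 0.0358; 0.12 without replicate 3).

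How many mitosis genes passed varied with the libraries and the method used, and the cause was not tested. The shared fit of all 4 groups took in wild type untreated replicate 5, in which mitosis genes summed to 610 CPM, while the other untreated libraries ranged from 14.2 to 91.1 CPM. Without that 1 library 24 of the 34 rose, and in a fit of the compared groups alone 25 rose, or 27 without replicate 3. limma voom called 29 and DESeq2 5. In the other direction, none rose without knockout replicate 2 or without any 1 of wild type CCl4 replicates 2 to 5. Leaving out wild type CCl4 replicate 1, wild type untreated replicate 4 or knockout untreated replicate 1, 3 or 4 gave 1 or 2.

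Macrophage genes rose, and most of the rise sat in replicate 3. Of 20 tested markers of recruited and lipid-associated macrophages 18 rose (median 5.59 log2), and without replicate 3, 10 rose (median 2.73). Gpnmb (chr6:49036546-49070929), a lysosomal glycoprotein of lipid-laden macrophages, stood at 14.5, 51.4 and 544 CPM in the knockout and at 0.249, 1.64, 0.5, 1.46 and 0.232 CPM in wild type. It rose by 7.99 ± 0.97 (adjusted p = 0.000209), and by 5.35 without replicate 3 (adjusted p = 0.000649). Trem2 (chr17:48346401-48354147), a lipid-sensing receptor, stood at 5.98, 10.7 and 200 CPM against 1.12, 1.7, 1.32, 1.12 and 1.2. It rose by 5.80 ± 0.85 (adjusted p = 0.000716), and by 2.69 without replicate 3 (adjusted p = 0.00564). In both genes all 3 knockout libraries lay above all wild type libraries, and replicate 3 exceeded the others by far. The elastase Mmp12, the lectin receptor Clec7a and galectin-3 (Lgals3) rose in both fits as well, by 2.99, 3.56 and 3.90 log2 without replicate 3.

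Kupffer cell markers moved otherwise. Of 16 markers 15 rose with all libraries (median 4.34 log2) and none without replicate 3 (median 0.77). Clec4f, a lectin found on Kupffer cells alone among liver cells, stood at 6.34, 15.6 and 319 CPM in the knockout and at 2.43, 8.57, 2.25, 19.2 and 8.09 CPM in wild type, so replicates 1 and 2 lay within the wild type range. Its difference was 3.81 log2 (adjusted p = 0.031) with replicate 3 and 0.44 (adjusted p = 0.896) without it. Cd5l, a scavenger protein of Kupffer cells, had 10.8, 32 and 719 CPM against 2.11 to 20.1 CPM, with 4.90 (adjusted p = 0.00905) and, without replicate 3, 1.33 (adjusted p = 0.515). Clec4f and Cd5l were singled out after their values were seen, as defining markers. C1qb, a complement subunit made by macrophages, had 9.57, 24.1 and 472 CPM against 0.571 to 7.51 CPM, with 5.78 (adjusted p = 0.00213) and, without replicate 3, 2.45 (adjusted p = 0.0903). The number of Kupffer cell markers that rose was 9 without wild type CCl4 replicate 1 and 8 without replicate 2.

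Cytokine and class II antigen presentation genes also rose, with fewer calls without replicate 3. Of 19 tested cytokines and chemokines 11 rose (median 2.20 log2), and 6 rose without replicate 3 (median 1.27). Il1b, the inflammatory cytokine interleukin-1 beta, stood at 2.69, 1.61 and 130 CPM in the knockout and at 0.0714 to 0.464 CPM in wild type, and it rose by 7.66 ± 1.16 (adjusted p = 0.000889; 3.30 and 0.0403 without replicate 3). The neutrophil attractant Cxcl2 rose by 7.47 ± 1.11 (adjusted p = 0.000837; 3.33 and 0.0366 without replicate 3). Il10, an anti-inflammatory cytokine, had 401 counts in the knockout libraries together and 2 in wild type, a ratio of 371 after scaling (95% interval 102 to 3076, counting error only). Its knockout levels were uneven, with a lowest, median and highest value of 0.644, 1.02 and 28.8 CPM. The log2 difference was 8.64 with all libraries and 5.06 without replicate 3, and Il10 was called in both fits. Nlrp3, the inflammasome sensor, stood at 0.897, 0.93 and 33.2 CPM against 0 to 0.0714 CPM and rose by 4.09 without replicate 3 (adjusted p = 0.0172). All 6 tested class II histocompatibility genes rose, and 2 rose without replicate 3. H2-Aa, the alpha chain of a class II molecule, had 4.19, 7.22 and 125 CPM against 0.321 to 1.76 CPM, with 5.56 ± 0.87 (adjusted p = 0.00108) and 2.56 without replicate 3 (adjusted p = 0.0258).

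Markers of other cell types that a hepatocyte sort could hold were summed in each library. Recruited macrophage markers reached 205, 354 and 3844 CPM in knockout replicates 1 to 3 and 86.8 to 170 CPM in wild type. Class II genes reached 27.7, 56.7 and 813 CPM against 1.86 to 12 CPM. Lymphocyte markers reached 1.73, 8.05 and 297 CPM against 1.37 to 5.51 CPM, and in replicate 1 13 of 20 were at 0, the immunoglobulin chain Igkc among them. Igkc and the heavy chain Igha stood at 200 and 458 CPM in replicate 3, and neither passed without it (adjusted p = 0.604 and 0.417). Neutrophil markers reached 1.79, 3.18 and 37.5 CPM against 0.756 to 1.75 CPM. Endothelial markers reached 294, 205 and 1717 CPM against 67.4 to 395 CPM, and 7 of 24 rose, but none without replicate 3, 1 or 2 without wild type CCl4 replicate 1, 2, 3 or 5, and 3 without knockout untreated replicate 3. Stab1, a scavenger receptor of liver endothelium and macrophages, had 16.9, 12.5 and 308 CPM against 8.23 to 20.1 CPM, and without replicate 3 its difference was 0.30 (adjusted p = 0.754). Stellate and matrix markers reached 210, 273 and 745 CPM against 85.8 to 203 CPM. Of 26 tested 3 rose, where 7.62% of all genes tested rose. The count was 1 without replicate 3, and 5 without knockout replicate 1 or 2. Bile duct markers reached 105, 91.6 and 125 CPM against 68 to 109 CPM. Replicate 3 was the highest library in each of these 7 sums. Erythroid and platelet markers went otherwise, with 66.5, 27.5 and 76 CPM against 60.8 to 109 CPM, and so did the summed class I genes, with 4796, 3994 and 4608 CPM against 4154 to 5536 CPM. RNA of such cells in a sorted sample and a change within hepatocytes cannot be told apart here, and replicates 1 and 2 also lay above the wild type range for the recruited macrophage, class II, neutrophil and stellate sums.

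**Figure D4:**
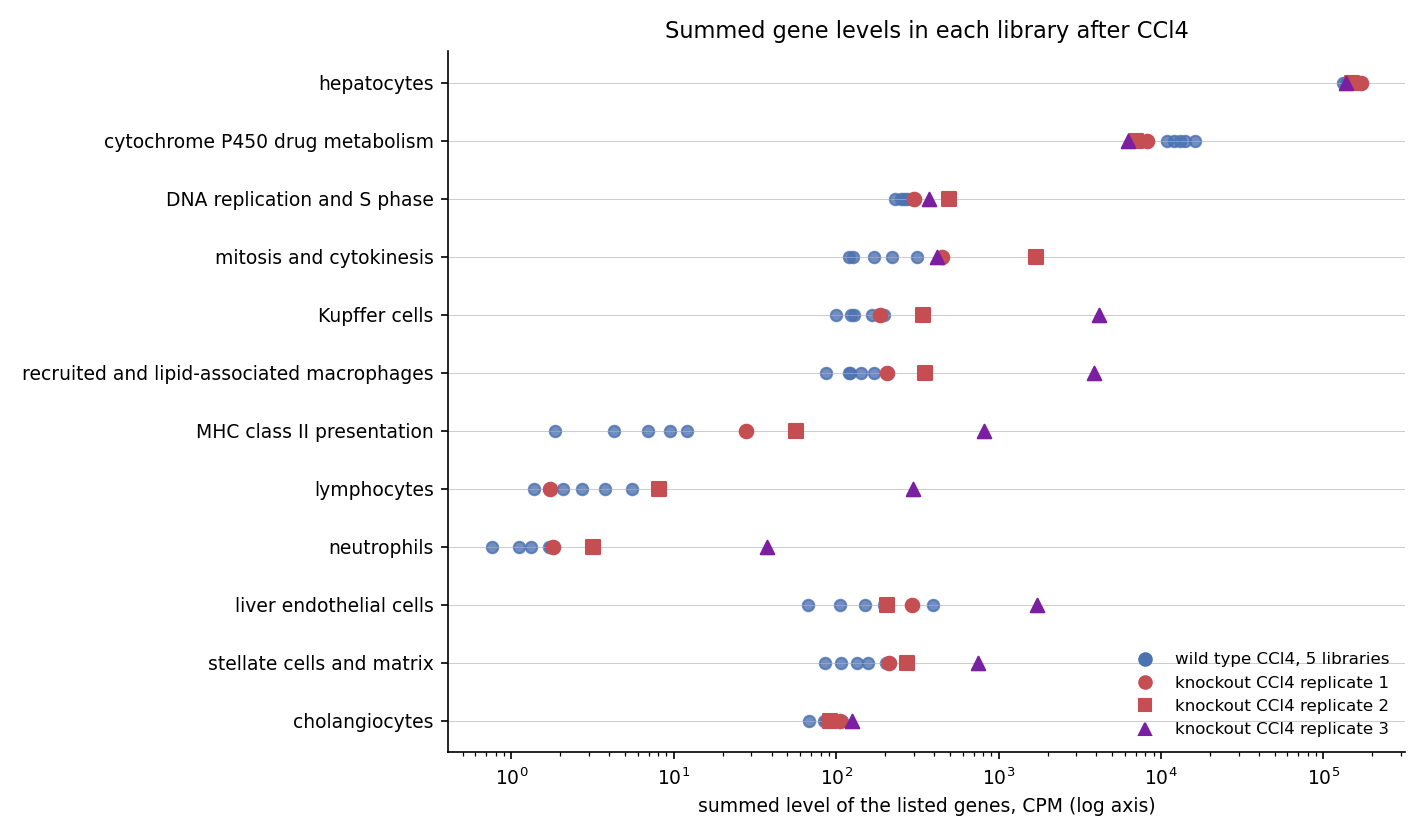
Summed level of each gene list in every library after CCl4, in CPM on a log axis; blue circles are the 5 wild type libraries, and the red circle, red square and purple triangle are knockout replicates 1, 2 and 3. The Kupffer cell, recruited macrophage, class II, lymphocyte, neutrophil and endothelial lists are far higher in replicate 3 than in any other library shown, the P450 list is lower in all 3 knockout libraries, and the mitosis list is highest in replicate 2.

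Genes tied to lysosomes and macrophage metabolism moved with replicate 3. Of 32 lysosomal genes 15 rose with all libraries (median 0.71 log2) and 2 without replicate 3 (median 0.06). Ucp2, a mitochondrial carrier abundant in macrophages, stood at 25.4, 47 and 201 CPM against 8.38 to 20.4 CPM, with 2.71 ± 0.54 (adjusted p = 0.00443) and 1.38 without replicate 3 (adjusted p = 0.102). Adcy7, an adenylyl cyclase of immune cells, had 1.32, 3.58 and 30.9 CPM against 0.187 to 0.387 CPM, and it rose by 5.28 ± 0.76 (adjusted p = 0.00062) and by 3.02 without replicate 3 (adjusted p = 0.0113). The median of 13 mitochondrially encoded genes turned from 1.27 to -0.33 log2, and that of 39 cytosolic ribosomal protein genes from 0.28 to -0.21, when replicate 3 was left out; no member of either list was called in either fit.

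A set of genes differed between the genotypes in the same way with and without CCl4. In the untreated mice 128 of 13721 genes were called (0.933%), 80 higher (0.583%) and 48 lower (0.35%) in the knockout. With libraries scaled by their totals alone the split was 92 higher and 32 lower, and with DESeq2 it was 155 higher and 173 lower. Of the 128, 89 were also called after CCl4, 87 in the same direction. Called in the same direction in the untreated comparison and in both fits after CCl4 were 68 genes, 49 higher and 19 lower. They include Yap1 and Wwtr1, and they were 53.1% of the untreated calls. Of the 68, 20 were annotated pseudogenes (29.4%), against 4.58% of all genes tested. By position, 14 lay on chromosome 2 (20.6%, against 8.21% of genes tested), 9 on chromosome 3 with Wwtr1 (13.2% against 4.75%), 9 on chromosome 1 (13.2% against 5.76%) and 3 on chromosome 9 with Yap1 (4.41% against 5.33%). Of the 14 on chromosome 2, 6 are predicted genes with the same counts in every library, so they are not separate measurements.

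Ribosomal protein genes and their processed copies traded places between the genotypes. Rps3a1 (chr3:86137940-86142702), which encodes a protein of the small ribosomal subunit, stood at 3.47, 3.33 and 7.4 CPM in knockout CCl4 libraries and at 178, 248, 192, 255 and 188 CPM in wild type CCl4. The processed pseudogene Rps3a2 (chr14:88123017-88123808) stood at 112, 104 and 190 CPM in the knockout and at 0 in all 5 wild type libraries, at least 4445-fold higher against a floor of 3 counts over the group. The pseudogene Rps3a3 (chr13:108670603-108671397) stood at 71.2, 56.5 and 145 CPM against 0 to 0.749 CPM. Untreated, Rps3a1 averaged 3.30 CPM in knockout and 225 CPM in wild type, and Rps3a2 averaged 136 and 0.367 CPM. Summed over the 3 genes, levels were 231 ± 97.2 CPM in knockout CCl4 (SD, n = 3) and 212 ± 36.2 CPM in wild type CCl4 (n = 5). Untreated, the sums were 222 ± 18.5 CPM (n = 4) and 225 ± 13.2 CPM (n = 5). The same was seen for Rpl34 (1.43, 1.11 and 4.65 CPM against 47.9 to 93.4) and its copy Rpl34-ps1, chosen after its values were seen (75.9, 38.9 and 196 CPM against 6.99 to 24.7). Their sums were 106 ± 84.2 and 81.9 ± 26.5 CPM. Reads of near-identical copies can be assigned to either, so single values in such families are uncertain.

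Further genes of this set were not summed with possible copies, so their single values can be uncertain too. The pseudogenes Gm10020, Gm6311 and Gm9855 were present in all 3 knockout CCl4 libraries and at or near 0 in wild type. Gm10020 had a ratio of 1276 (95% interval 436 to 6195), and Gm6311 was at least 1198-fold higher. The noncoding RNA Gm26825 stood at 305, 161 and 209 CPM in the knockout and at 0 to 5.42 CPM in wild type. ENSMUSG00000083840, without a symbol or position in the annotation used, stood at 345, 143 and 129 CPM against 0 to 15 CPM. Fam171b (chr2:83812636-83883486) stood at 21.3, 17.4 and 8.9 CPM against 0.0387 to 0.39 CPM, with 6.19 ± 0.54 log2 after CCl4 and 8.63 untreated. Cwc22 (chr2:77881159-77946375), a splicing factor on the same chromosome chosen after its values were seen, stood at 144, 83.4 and 209 CPM against 9.12 to 12.5 CPM, with 3.81 ± 0.28 and 3.67. Tdg (chr10:82629828-82650799), a DNA glycosylase, stood at 0.777, 1.25 and 1.34 CPM against 10.6 to 16.3 CPM, with -3.53 ± 0.28 and -3.69. The processed pseudogene Gm9855 moved the other way, with 7.38 and 5.06, and whether it shares reads with Tdg was not tested. Without replicate 3 the values after CCl4 were 6.48, 3.46 and -3.65 for Fam171b, Cwc22 and Tdg. For these 3 genes the difference between the 2 log2 values did not pass (adjusted p = 0.194, 0.893 and 0.866).

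Genes of conjugation at chromosome 1 also changed places. Ugt1a1, which conjugates bilirubin, fell by 1.79 ± 0.24 after CCl4 (adjusted p = 0.000384; 0.00329 without replicate 3) and by 2.23 untreated. Ugt1a9 rose by 1.46 ± 0.29 (adjusted p = 0.00418; 0.00419 without replicate 3) and by 2.02 untreated. Ugt1a8 had 279 counts in knockout CCl4 and 2 in wild type CCl4, a ratio of 258 (95% interval 70.8 to 2144). These 3 were chosen after their values were seen. The Ugt1a genes share their last exons, so reads there cannot be assigned to 1 of them, and the 8 genes summed to 616 ± 176 CPM in knockout CCl4 (n = 3) and 769 ± 59.5 CPM in wild type CCl4 (n = 5). Elsewhere, Ugt2b38, of a family with close copies, was near 0 in the knockout, with a ratio of 305 in favour of wild type (95% interval 104 to 1479). Adh6-ps1, a transcribed pseudogene of alcohol dehydrogenase, fell by 6.44 ± 0.52 after CCl4 (adjusted p = 2.37e-06; 2.05e-05 without replicate 3) and by 2.36 untreated (adjusted p = 0.000963). Gm20547, which overlaps complement genes on chromosome 17, had 0 counts in the 3 knockout CCl4 libraries against 8.59 to 21.1 CPM, at least 277-fold lower. Untreated it ranged from 0 to 19.9 CPM in knockout and from 0 to 32.7 CPM in wild type, so levels at 0 occurred in both genotypes. After CCl4 its adjusted p was 0.0464 (0.166 without replicate 3) and passed in 4 of 17 fits without 1 library.

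**Figure D5:**
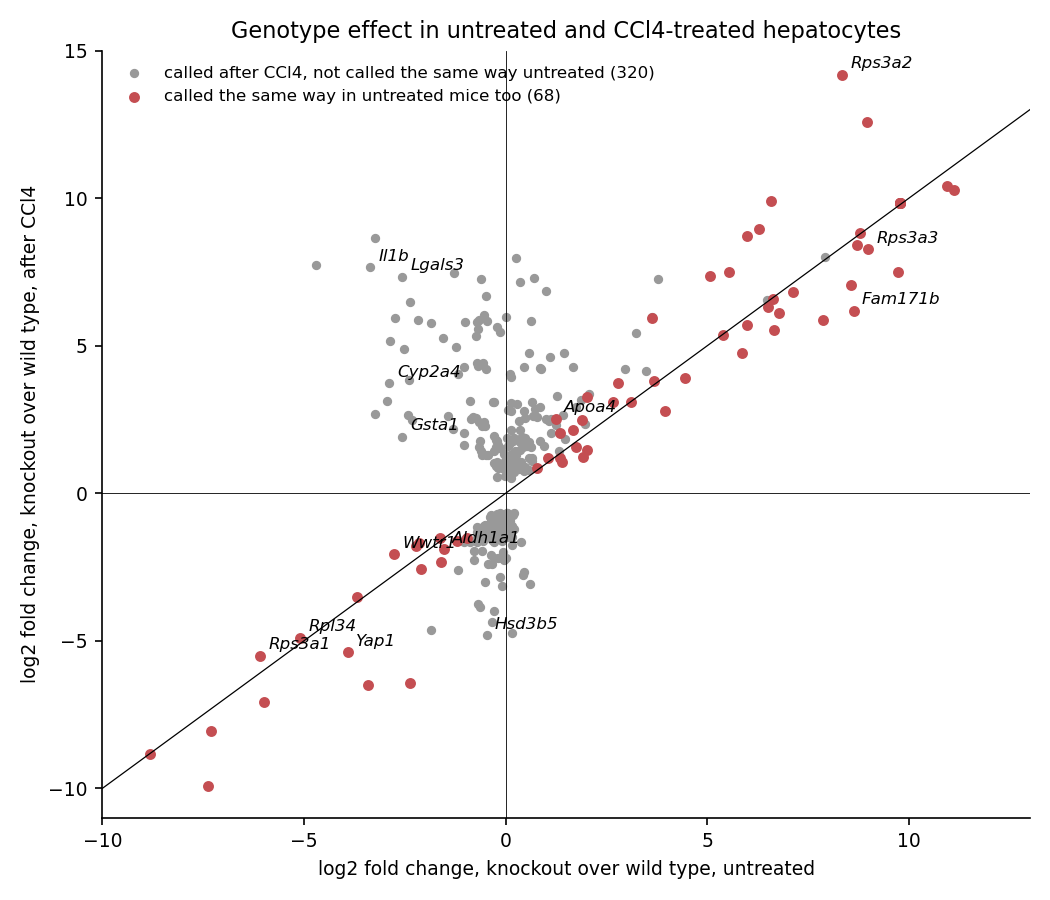
Log2 fold change of knockout over wild type after CCl4 (vertical axis) against the same in untreated mice (horizontal axis), from separate samples, for the 388 genes called in the same direction after CCl4 with and without replicate 3; the line marks equal values. The 68 genes called the same way in untreated mice (red) lie at the lower left and upper right, many near the line, with Rps3a1 close to it and Rps3a2 (14.19 against 8.35) far above it, and most of the other 320 (grey) lie near 0 on the horizontal axis.

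Whether the genotype effect differed between injured and untreated mice was tested as the difference of the 2 effects. It was called for 150 of 13721 genes (1.09%), positive for 109 (0.794%) and negative for 41 (0.299%), a positive share of 72.7% that became 60.7% of 28 calls with libraries scaled by their totals alone. With limma voom 1 was positive and 8 were negative, and with DESeq2 532 were positive and 251 negative. Without replicate 3 the count was 11. Of the 150, 121 were also called after CCl4, 74 of them without replicate 3 too. Hepatocyte genes with a negative difference included Cyp2c23 (-1.74, adjusted p = 0.0278), whose untreated effect was -0.35, and Hsd3b5 (-4.33, adjusted p = 0.0316), with -0.47 untreated. Without replicate 3 these differences were -1.66 (adjusted p = 0.0476) and -4.07 (adjusted p = 0.0825). Gsta1 had a positive difference of 4.48 (adjusted p = 0.0204), since it fell by 2.56 untreated (adjusted p = 0.0165) and rose after CCl4. Untreated it averaged 0.501 CPM in knockout and 3.09 CPM in wild type, and after CCl4 47.9 and 12.6 CPM. Cyp2a4 (6.63), Ly6d (6.08) and Tagln2 (3.40), each with an adjusted p of 0.0316, also had a positive difference. Untreated knockout levels of Cyp2a4 and Ly6d were close to 0, at most 0.257 and 0.0856 CPM. Without replicate 3 the differences of these 3 genes were 6.56, 6.21 and 3.36. None of the 3 passed (adjusted p = 0.0691, 0.0637 and 0.059), while Gsta1 did (4.70, adjusted p = 0.032). These calls were unstable: the count ran from 0 to 867 when 1 library was left out, with 867 without knockout CCl4 replicate 1 and 0 without any 1 of wild type CCl4 replicate 4 or 5, wild type untreated replicate 4 or knockout untreated replicate 1 or 4.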

How the data were processed

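RNA-seq of sorted hepatocytes was analysed from 1 table of raw counts per gene that the authors deposited, 23461 genes by 17 samples. Per the submitters' processing notes, STAR 2.4.1d and mm10 were used; no label or header names the read counter, its handling of strand or the gene annotation. Symbols were found for 22914 genes and mm10 positions for 22929. Counts per library ran from 11266420 to 24775863. Genes were kept with edgeR's filterByExpr (minimum count 10, minimum total 15), scaled by TMM and fitted over all 17 samples with 1 mean per group. Differences were tested with edgeR's robust quasi-likelihood F test (edgeR 4.0.16, R 4.3.3), adjusted by Benjamini-Hochberg over all genes tested, and called at an adjusted p under 0.05. The SE is the log2 fold change divided by the square root of F, and levels are CPM of TMM-scaled library sizes. Intervals of ratios are 95% and cover counting error only.

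Genes were named by a fixed rule: Yap1 and Wwtr1, the 12 largest rises and falls with and without knockout CCl4 replicate 3 at a mean of at least 10 CPM, the 12 smallest p values in the difference of the genotype effects, the direct targets, and up to 4 members of each list by adjusted p, or by the larger adjusted p of both fits. Genes named outside it are said to be chosen after their values were seen. Not every gene that the rule gives is reported here. The members and the 55 gene lists were chosen with earlier results of these data known. No 2 libraries of a group agreed within sampling noise. The labels say that replicate numbers pair no samples, and deviations of same-numbered samples had correlations of 0.00686, -0.08194 and -0.23719. On simulated counts with 3 knockout libraries, 28% of genes changed 2-fold and 74% of those changed 4-fold were recovered among 13530 genes. Without replicate 3 the shares were 15% and 63% among 13611 genes. The simulation changed 100 genes at each size and called 108 with 3 knockout libraries, against 1622 calls in the data. It drew the knockout libraries alike, with the spread fitted to all 17 samples, so no library stood apart. These shares therefore need not hold for the data. Alternatives were other scalings and filters, DESeq2 1.42.0, limma 3.58.1 voom, sva 3.50.0, a replicate block, fewer groups and leaving out each library.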

Additional observations from a re-analysis of the deposited data

Results flagged for a closer look

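In 10 of 120 genes tested, 1 wild type CCl4 library lay far from the other 4, where chance flags about 5% of groups. Replicate 1 was high for Mcm5 (5.67 CPM), Mcm2 (4.18), Gm10020 (0.187) and Ugt1a8 (0.125). Replicate 2 was high for Cyp3a59 (40.8 CPM) and Fgl2 (0.315), and replicate 4 for Stab1 (20.1). Replicate 5 was high for Gm2788 (22.2 CPM), Ugt2b38 (25) and Gm9855 (0.503). Gm10020, Ugt1a8 and Gm9855 were at 0 in the other 4 libraries, so their flags lie near the floor. Gm10020 and Ugt1a8 had 3 and 2 counts in wild type CCl4 altogether. Gm2788, a predicted gene, fell by 2.68 ± 0.43 log2 after CCl4 (edgeR, adjusted p = 0.00121; 0.0121 without replicate 3).

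For 32 named genes the genotype effect after CCl4 differed from that in untreated mice by edgeR's test of the difference itself. The log2 difference was negative for the metabolic genes Cyp2c23 (-1.74), Cyp2j5 (-1.31), Nat8f1 (-2.24), Sult2a8 (-3.03), Hsd3b5 (-4.33), Sult2a7 (-4.04) and Adh6-ps1 (-4.08). It was also negative for Gm2788 (-3.14), the immunoglobulin carrier Pigr (-1.27) and the coagulation factor gene F13b (-1.04). Among cell cycle genes it was positive for Mcm5 (2.86), Mcm2 (2.67), Ect2 (5.24), Pbk (6.56), Top2a (5.33) and Cdc20 (8.20). For the mitosis list the median genotype effect was 2.21 log2 after CCl4 and -3.48 untreated, so both comparisons enter such differences. Genes of the injury list and metabolic genes with a positive difference were Ly6d (6.08), Tagln2 (3.40), Anxa2 (4.02), Gsta1 (4.48), Srxn1 (2.22), Slc1a4 (2.77) and Cyp2a4 (6.63). Immune genes with a positive difference were Mmp12 (6.32), Trem2 (6.51), Lgals3 (9.90), Il1b (11.02), Cxcl2 (8.74), Nlrp3 (12.46), H2-Aa (6.24), Ucp2 (5.04) and Adcy7 (6.84). Several of the 32 genes were close to 0 in untreated knockout libraries, so the size of their differences is uncertain. Highest levels there were 0.11 CPM for Pbk, 0.0838 CPM for Il1b and 0 for Nlrp3. Each of the 32 lost its call in at least 5 of 17 fits without 1 library, and Sult2a8 lost it in 16. Without knockout CCl4 replicate 3 the difference was 3.45 for Mmp12, 3.41 for Trem2, 6.48 for Lgals3, 6.62 for Il1b, 4.50 for Cxcl2 and 3.21 for H2-Aa. It was 4.68 for Cdc20 without wild type untreated replicate 5, 1.35 for Srxn1 without knockout CCl4 replicate 2 and -4.69 for Sult2a8 without knockout CCl4 replicate 1. For the other 23 genes no single library moved the value by over 1.5 times.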

How the results depend on the processing

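On the simulated counts few 2-fold changes passed with 3 knockout libraries, in a setting that differs from the data as stated above. No named gene changed direction under any alternative run. The 1622 calls after CCl4 became 1033 with voom and sample quality weights and 555 without the 2 libraries above 30% mitochondrial counts. They became 547 in the compared groups alone without knockout CCl4 replicate 3, and 865 with DESeq2 without that replicate. Leaving out 1 library gave 418 to 2216 (without knockout CCl4 replicate 3 and replicate 1). The 128 untreated calls became 328 with DESeq2 and 213 with voom and quality weights. The 150 calls of the difference between conditions became 28 with library totals, 33 with no filter, 783 with DESeq2, 9 with voom, 2 with voom and quality weights, 61 with a surrogate variable and 9 without the libraries above 30%. Leaving out 1 library gave 0 to 867. With the replicate number as a block, although the numbers share no pairing, the counts were 867 after CCl4 and 3 for the difference. Of 120 named genes, 95 kept their side of the threshold without knockout CCl4 replicate 3, 24 lost the call and 1 gained it. Without knockout CCl4 replicate 2, 102 kept theirs and 18 lost the call. With library totals the median log2 value of all genes moved from -0.01 to 0.14 untreated and from 0.04 to -0.16 for the difference. The cause was not tested.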
